A study of Homo sapiens with 8 samples.

Results

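The phospholipase C genes described here are PLCB1, PLCB2, PLCB3, PLCB4, PLCD1, PLCD3, PLCD4, PLCG1, PLCG2 and PLCE1, 10 of the 26475 genes in the deposited count table. They were taken by symbol, and all 10 were found and had enough counts to be tested. The RNA came from BT474, a luminal breast cancer line of human origin that carries an ERBB2 amplification, in 8 samples. The labels put 4 in a group called NPY1R high and the other 4 in NPY1R low, a difference entered there as the genotype, and they name no treatment for either group. How high and low cells were obtained is not given in the sources used here, nor whether the samples of a group were separate cultures, so errors and p-values measure the spread between these samples, which may be technical. The genes were selected on the difference in counts between these groups, in that the family was proposed, with PLCE1 singled out, after that difference had been seen. Levels and differences of the 10 genes are therefore given as a description, without a p-value.

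Phospholipase C enzymes cut the membrane lipid phosphatidylinositol bisphosphate (PIP2) into the soluble messenger inositol trisphosphate (IP3), which releases calcium from the endoplasmic reticulum, and diacylglycerol (DAG), which stays in the membrane and activates protein kinase C. The classes differ in what switches them on. The beta enzymes answer to G protein-coupled receptors through Gq alpha subunits or G beta-gamma dimers, the gamma enzymes to tyrosine kinases, PLCE1 to small GTPases of the Ras superfamily, and the delta enzymes mainly to calcium. NPY1R encodes the neuropeptide Y receptor Y1, which signals mainly through Gi proteins.

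Library totals ranged from 18025648 to 30609791 expected counts. Levels are given as CPM, the count of a gene relative to its library's total after scaling with edgeR's TMM factors. The level of NPY1R was 699 to 1049 CPM in the NPY1R high libraries and 90.8 to 104 in the NPY1R low libraries, as labelled. The epithelial markers, 8 genes, summed to between 4643 and 5251 CPM in NPY1R high and between 4565 and 5743 in NPY1R low, a sum carried mostly by keratins and CDH1. Of these 8 markers, 3 had an edgeR adjusted p under 0.05 (37.5%, against 13.6% of all tested genes). EPCAM and ELF3 fell by 0.30 and 0.25 on the log2 scale (edgeR adjusted p 0.00436 and 0.0199), and GATA3 rose by 0.60 (edgeR adjusted p 0.00616). The part of these differences in the levels of the phospholipase C genes was not tested. Of 8 haematopoietic markers, CD3E had 0 counts in every library (a 0 allows up to 3 counts per library), PTPRC had 2 counts in all, and CD68 and LYZ held most of the rest. The list summed to between 1.54 and 2.49 CPM in NPY1R high and between 1.83 and 2.91 in NPY1R low. COL1A2, DCN and PDGFRB, of 6 fibroblast markers, were likewise at 0, and that list summed to 10.9 to 17.5 and 10.4 to 17.5 CPM, nearly all of it COL1A1. The 4 endothelial markers summed to 9.22 to 15.6 and 13.5 to 18.2 CPM, nearly all of it VWF.

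PLCE1 was higher in every NPY1R high library. PLCG2 was also higher in each of them, by a much smaller amount, and the groups overlapped for the other 8 isoforms. The threshold was 0.05 for the p of edgeR's quasi-likelihood test after Benjamini-Hochberg adjustment over all 14008 tested genes. PLCE1 was the 1 gene of the 10 that passed, where 13.6% of all tested genes passed, 5.78% higher and 7.81% lower. Because the family was chosen with this comparison in view, nothing is read from that count. The median log2 difference, NPY1R high minus NPY1R low, was -0.05 over the 10 genes and -0.03 over all tested genes. Of the 10 genes, 2 had groups that did not overlap, PLCE1 and PLCG2, both higher in NPY1R high, where 20.2% of tested genes did not overlap, 8.77% higher and 11.4% lower. In bulk RNA, a larger share of cells that express a gene and more of its RNA per cell cannot be told apart.

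**Figure D1:**
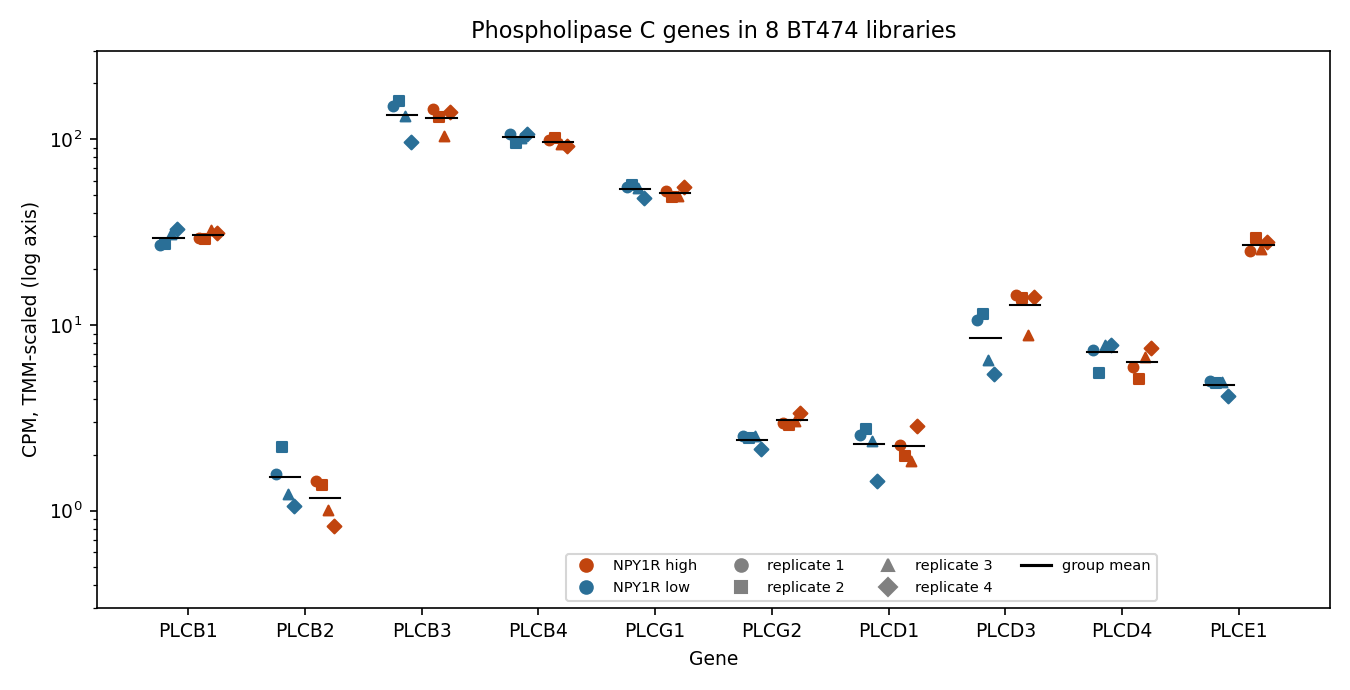
TMM-scaled CPM (log axis) of the 10 phospholipase C genes in the 8 libraries. Each point is a library, its shape the replicate number and its colour the group, and the bars are group means. PLCE1 lies between 25.0 and 29.3 CPM in NPY1R high and between 4.16 and 4.97 in NPY1R low, and the groups overlap for every other gene except PLCG2.

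PLCE1 encodes phospholipase C epsilon, which carries both a lipase core and a guanine nucleotide exchange domain, and so acts on small GTPases as well as answering to them. Its expected counts were 727.98, 786.98, 707 and 508 in NPY1R high replicates 1 to 4. The NPY1R low libraries, in the same order, had 148, 139, 108 and 106. Every high library lay above every low one, also after scaling. NPY1R high libraries had 27.0 ± 2.00 CPM and NPY1R low libraries 4.74 ± 0.38 (SD, n = 4 each), a log2 difference of 2.51 (SE 0.10), or 5.69-fold. By size of the fold change, PLCE1 stood at place 52 of the 810 genes higher past the threshold. Between replicates 1 and 2 of both groups the log2 difference was 2.44, and between replicates 3 and 4 it was 2.54. Leaving out any single library gave 2.47 to 2.56.

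The gene spans chromosome 10 from 94030812 to 94332823 on the plus strand of GRCh38, with 3 transcripts in the basic set of GENCODE release 29, between which gene-level counts cannot tell. Its antisense partners PLCE1-AS1 and PLCE1-AS2 lie inside it on the opposite strand and were too low to test. PLCE1-AS1 had 8 counts over the NPY1R high libraries and 0 over the NPY1R low ones, and PLCE1-AS2 had 3 and 2. The labels name a stranded kit, but whether the counting used strand is not given in the sources used here. Both partners together held far fewer counts than PLCE1 did in any library. The nearest tested neighbours did not share the difference. NOC3L, whose nearer end lies 0.4 kb beyond the end of PLCE1 and which encodes a nucleolar protein, had 55.3 ± 1.08 CPM in NPY1R high and 52.1 ± 2.06 in NPY1R low (SD, n = 4 each; log2 difference 0.09, SE 0.05). On the other side, PIPSL, 69.3 kb away, had a log2 difference of 0.08 (SE 0.21) at under 1 CPM.

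The 5 genes whose log2 CPM followed PLCE1 most closely over the 8 libraries, among 12627 compared, were DSCAM-AS1 (Pearson's r 0.997), ADAMTS1 (0.996), DSCAM (0.995), PTPRG (0.995) and TUBA1A (0.994). With 2 groups this far apart, such values mostly record the group difference, so they are a description over 8 libraries. Within the groups, after each group's mean was removed, the correlation with PLCE1 was 0.488 for DSCAM-AS1, 0.286 for ADAMTS1, 0.503 for DSCAM, 0.664 for PTPRG and -0.391 for TUBA1A. DSCAM-AS1, a long non-coding RNA antisense to DSCAM, had 41.7 ± 2.29 CPM in NPY1R high and 4.71 ± 0.54 in NPY1R low (SD, n = 4 each). ADAMTS1, a secreted metalloprotease, had 59.8 ± 2.82 and 8.74 ± 1.03 CPM. PTPRG, a receptor tyrosine phosphatase, differed by a log2 of 0.70 (SE 0.06), far less than PLCE1.

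The gamma enzymes bind to activated tyrosine kinases. PLCG1, the widely expressed isoform, had 49.0 to 55.3 CPM in NPY1R high and 48.1 to 56.6 in NPY1R low, a log2 difference of -0.06 (SE 0.07). Its antisense partner PLCG1-AS1 had 30 counts over the NPY1R high libraries and 25 over the NPY1R low ones. PLCG1 and PLCE1 were the members with expected counts that were not whole numbers, which reads shared with another gene can give. PLCG2, best known from blood cells, had 2.95, 2.90, 3.04 and 3.36 CPM in NPY1R high replicates 1 to 4. In NPY1R low replicates 1 to 4 it had 2.52, 2.45, 2.52 and 2.16 CPM. The groups did not overlap, at a log2 difference of 0.34 (SE 0.13), and the gene did not pass the threshold. Of the haematopoietic markers, CD68 had 1.08 ± 0.14 CPM in NPY1R high and 1.63 ± 0.41 in NPY1R low, and LYZ had 0.73 ± 0.32 and 0.63 ± 0.10 (SD, n = 4 each). The part of other cell types in the level of PLCG2 was not tested.

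The beta enzymes were the most abundant class. PLCB3 had 131 ± 18.5 CPM in NPY1R high and 136 ± 28.2 in NPY1R low (SD, n = 4 each), with a log2 difference of -0.05 (SE 0.15). PLCB4 had 91.8 to 101 CPM in NPY1R high and 96.0 to 107 in NPY1R low, a log2 difference of -0.09 (SE 0.06). PLCB1 had 29.2 to 32.6 and 26.9 to 33.0 CPM, a log2 difference of 0.05 (SE 0.08). None of the 3 separated the groups. PLCB1 and PLCB4 lie 100.4 kb apart on chromosome 20, from 8077251 to 8968360 and from 9068763 to 9481242 (GRCh38, plus strand), with no tested gene between them. PLCB2, known mainly from blood cells and taste cells, was the least abundant member, at 15 to 63 counts per library and a log2 difference of -0.37 (SE 0.28). Without NPY1R low replicate 2, its highest library, that difference was -0.14.

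The delta enzymes are small isoforms that need calcium. PLCD3 had 14.6, 13.9, 8.83 and 14.2 CPM in NPY1R high replicates 1 to 4. In NPY1R low replicates 1 to 4 it had 10.6, 11.4, 6.45 and 5.46 CPM. NPY1R high replicate 3 stood below its own group and below NPY1R low replicates 1 and 2, so the groups overlapped. The log2 difference was 0.59 (SE 0.25), or 0.77 without that library and 0.46 without NPY1R low replicate 4. The difference was 0.37 between replicates 1 and 2 and 0.91 between replicates 3 and 4. PLCD4 had 5.13 to 7.49 and 5.53 to 7.82 CPM, a log2 difference of -0.18 (SE 0.16). PLCD1 had 1.85 to 2.86 and 1.45 to 2.77 CPM, a log2 difference of -0.05 (SE 0.23). Both overlapped between the groups.

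**Figure D2:**
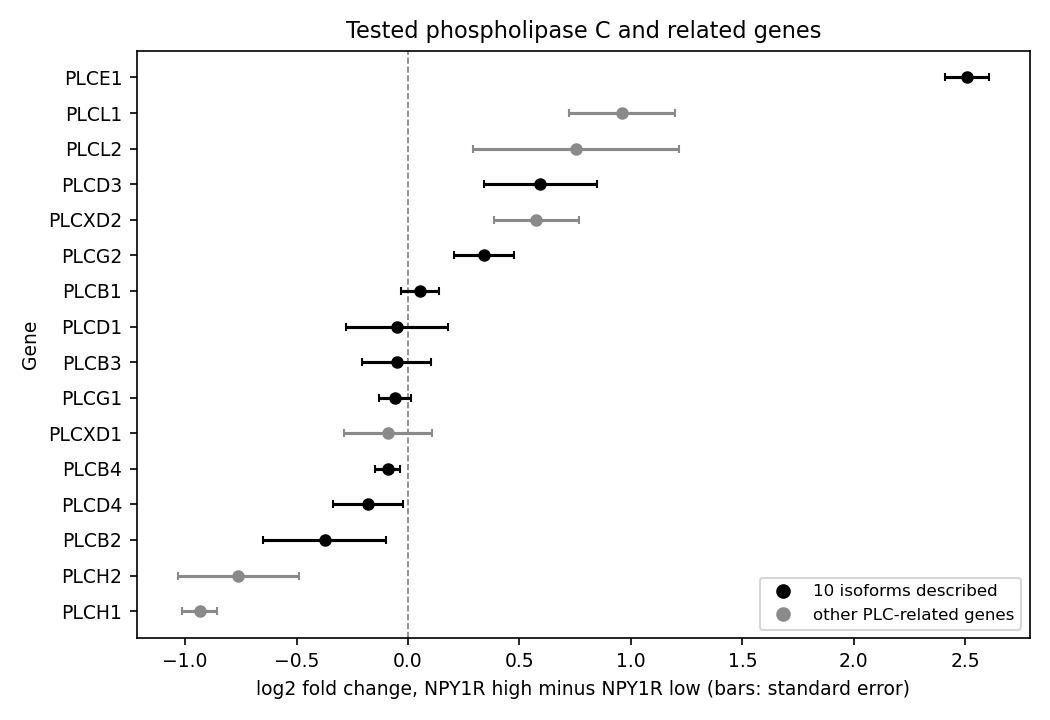
Log2 fold change (NPY1R high minus NPY1R low) of the 16 tested phospholipase C and related genes, with standard errors from edgeR's quasi-likelihood fit. Black points are the 10 isoforms and grey points the 6 other genes. PLCE1 stands at 2.51, PLCD3 and PLCG2 at 0.59 and 0.34, and PLCH1 at -0.94 at the other end.

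Within each group, the members with the most GC-rich transcripts were lowest in the library at the low end of a trend in base composition. Libraries differed in a trend with transcript GC content, given here as Spearman's rank correlation over genes of GC content with how far a library lay from its group mean. Its highest value was 0.56, in NPY1R low replicate 1, and its lowest -0.65, in NPY1R low replicate 4, with NPY1R high replicate 3 at -0.52. PLCB3, PLCD1 and PLCD3 had the most GC-rich transcripts of the 10 genes, at 61.5%, 60.6% and 60.3%. PLCB3 was lowest in the same libraries, with 96.9 CPM in NPY1R low replicate 4 and 105 in NPY1R high replicate 3, against 133 to 161 in the other 6. PLCD1 was also lowest in these 2 libraries, at 1.45 and 1.85 CPM. The next most GC-rich members, PLCB2 (58%) and PLCG1 (56%), were lowest within NPY1R low in replicate 4 as well. In NPY1R high PLCB2 was lowest in replicate 4 (0.826 CPM) and PLCG1 in replicate 2 (49.0 CPM). PLCE1, at 47.0% GC, was also lowest within NPY1R low in replicate 4, at 4.16 CPM, while in NPY1R high its lowest value, 25.0 CPM, was in replicate 1 and replicate 3 had 25.6.

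The GC trend removed in a fit was taken from deviations from the mean of all libraries, not of the group. It can thus hold a GC-linked difference between the groups. With each library's GC trend removed, the log2 difference of PLCD3 was 0.65 with an SE of 0.17 in place of 0.25. When the fit set replicates 1 and 2 apart from 3 and 4 it was 0.63 (SE 0.16), and without both libraries at the low end of the trend it was 0.61 (SE 0.17). The difference moved little in these fits, and its error was smaller. The log2 difference of PLCE1 was 2.47 with the GC trend removed.

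**Figure D3:**
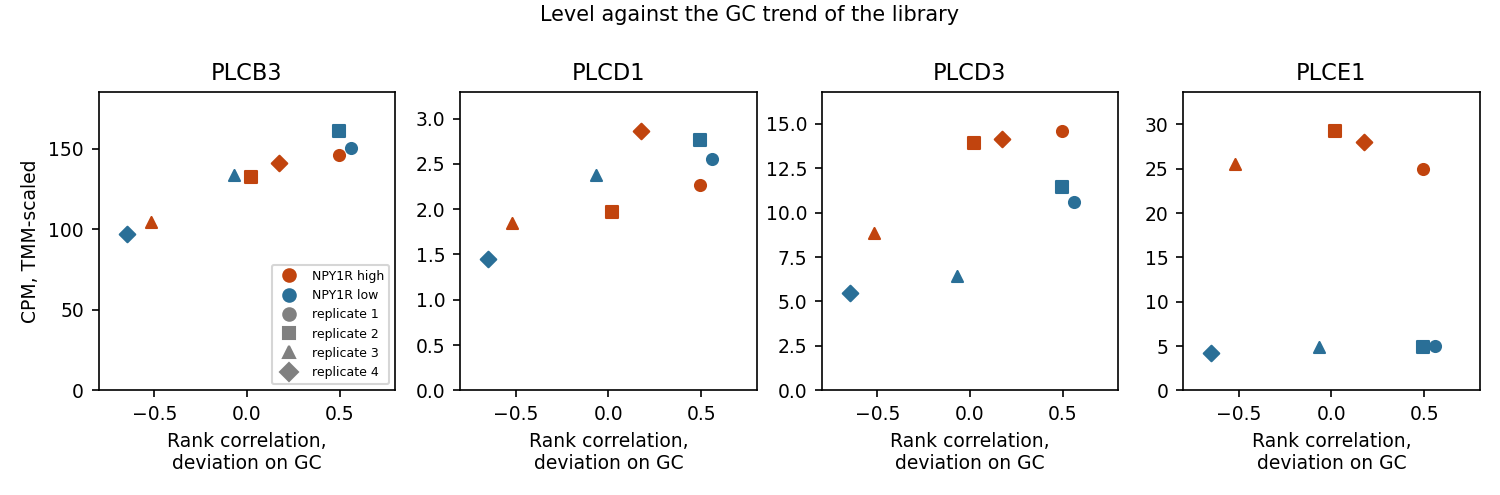
TMM-scaled CPM of PLCB3, PLCD1, PLCD3 and PLCE1 (axes from 0) against the GC trend of each library, Spearman's rank correlation over genes of transcript GC content with the deviation from the group mean. Each point is a library. PLCB3 is lowest in each group at the low end of the trend, with 96.9 CPM at a correlation of -0.65 and 151 at 0.56, and PLCE1 keeps its 2 groups apart at every value of the trend.

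Levels of different genes were compared per transcript length, as TPM (counts per length of transcript, scaled to the same sum in every library) computed from the expected counts and the median length of each gene's GENCODE transcripts. The order from the top was PLCB3, PLCB4, PLCG1 and PLCB1 in both groups, with 43.7 ± 7.04, 24.1 ± 2.49, 11.4 ± 0.68 and 7.42 ± 0.32 TPM in NPY1R high (SD, n = 4). Neighbours among these 4 did not overlap within a group. PLCE1 had 5.80 ± 0.76 TPM in NPY1R high, place 5 of 10, and 1.02 ± 0.04 TPM in NPY1R low, place 8 (SD, n = 4 each). In NPY1R low its libraries overlapped those of PLCD1, at 1.11 ± 0.23 TPM. In NPY1R high it lay below PLCB1 and above PLCD3 without overlap, although its highest library, 6.87 TPM, came close to the lowest of PLCB1, 6.99 TPM. PLCD3 and PLCD4 overlapped in both groups, and PLCG2 and PLCB2, both under 1 TPM in every library, overlapped in NPY1R low. With the longest transcript as the length, 12024 bases for PLCE1 in place of 6514, its mean over the 8 libraries was 2.32 TPM in place of 3.41. It stood at place 7 in place of 5. By that length PLCE1 had 3.53 to 4.75 TPM in NPY1R high, overlapping PLCD3 at 2.42 to 4.44 and PLCD4 at 3.10 to 3.91. In NPY1R low it had 0.668 to 0.743 TPM, below PLCD1 at 0.985 to 1.56 without overlap.

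The 10 genes summed to 100.2 ± 10.6 TPM in NPY1R high and 98.2 ± 3.64 in NPY1R low (SD, n = 4 each), so the summed level differed by less than the spread between libraries. PLCE1 made up 5.80% ± 0.52 of that sum in NPY1R high and 1.04% ± 0.04 in NPY1R low. The 4 beta genes held 74.3% to 76.7% in NPY1R high and 79.5% to 80.6% in NPY1R low. Shares of a fixed sum are not independent, so a larger PLCE1 share lowers the others. The gamma genes held 12.1% ± 0.72 and 12.7% ± 0.40, and the delta genes 6.76% ± 0.54 and 6.28% ± 0.22, with overlap in both classes.

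**Figure D4:**
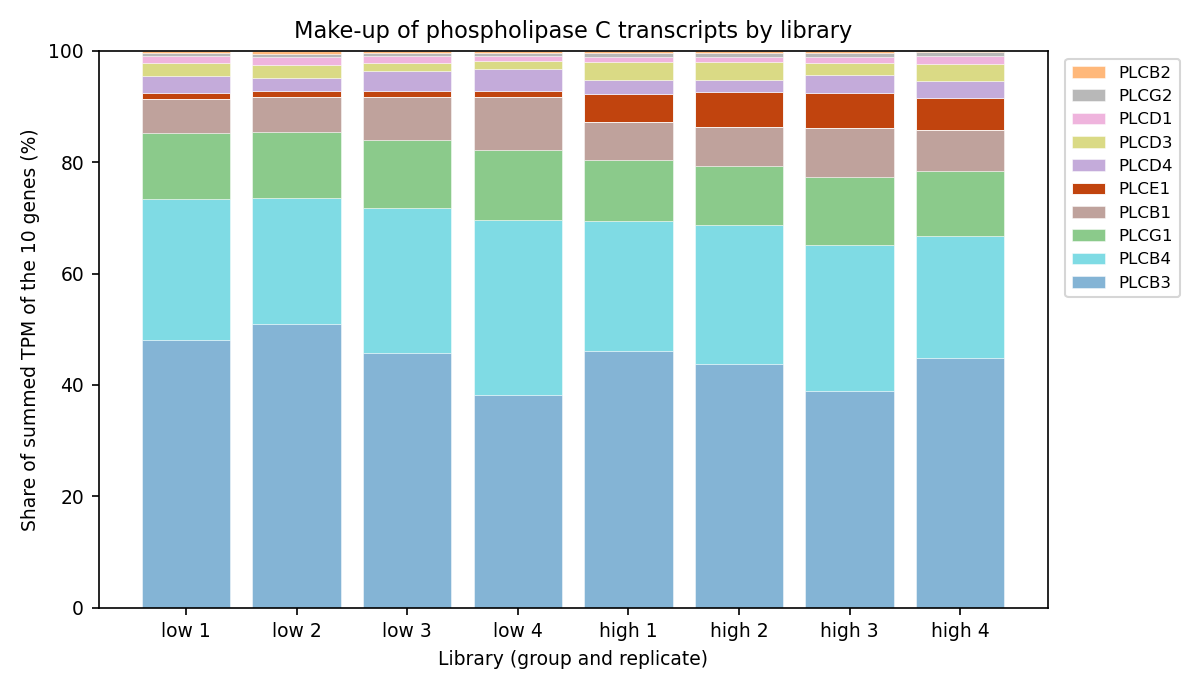
Share (%) of each of the 10 genes in their summed TPM, by library, stacked from 0 to 100. PLCE1 takes 5.08% to 6.22% in the 4 NPY1R high libraries and 0.99% to 1.09% in the 4 NPY1R low libraries, and PLCB3 is the largest part in every library.

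The genes around all members, those of PLCE1 included, were looked at together. The nearest tested gene on each side of a member, and the tested genes overlapping one, had log2 differences between -0.55 and 0.10, members among them left aside. Of these 21 genes, 0 passed in edgeR, DESeq2 or limma-voom, with 1 at an unadjusted edgeR p under 0.05. In edgeR, 13.6% of all tested genes passed. The value of -0.55 (SE 0.22) belonged to VILL, a villin-like gene 0.3 kb from PLCD1, at 1.26 ± 0.36 and 1.81 ± 0.04 CPM (SD, n = 4 each). PLCD3 (chromosome 17, 45108967 to 45133354, minus strand) overlaps NMT1 and ACBD4 on the opposite strand. NMT1, a protein myristoyltransferase, had a log2 difference of -0.01 (SE 0.06) and ACBD4 of 0.01 (SE 0.22). PLCG1 (chromosome 20, 41136960 to 41196801, plus strand) overlaps ZHX3, with 0.06 (SE 0.12).

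The phospholipase C genes outside the 10 were looked at next. Of 8 such genes, 6 were tested, 1 was higher and 1 lower past the threshold, and their median log2 difference was 0.24. PLCH1, an eta isoform that is sensitive to calcium and best known from neurons, had 15.0, 16.0, 16.0 and 18.6 CPM in NPY1R high replicates 1 to 4. In NPY1R low replicates 1 to 4 it had 31.3, 31.9, 31.1 and 31.0 CPM. Every high library lay below every low one, and PLCH1 fell by 0.94 on the log2 scale (SE 0.08; edgeR adjusted p 5.65e-05). PLCL1, a phospholipase C-like protein without lipase activity, was higher in NPY1R high, at 1.71 ± 0.24 against 0.87 ± 0.25 CPM (SD, n = 4 each; log2 difference 0.96, SE 0.24; edgeR adjusted p 0.0235). It lost the threshold without NPY1R high replicate 2 (edgeR adjusted p 0.0514), NPY1R high replicate 3 (0.0624) or NPY1R low replicate 3 (0.0514). PLCH2, the other eta isoform, had a log2 difference of -0.76 (SE 0.27; edgeR adjusted p 0.102). PLCXD2 had 0.58 (SE 0.19; 0.0783), PLCL2 0.75 (SE 0.46; 0.357) and PLCXD1 -0.09 (SE 0.20; 0.843). PLCZ1, the sperm isoform, had 0 counts in every library, which allows up to 3 counts in each, and PLCXD3 was too low to test.

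Genes acting before and after phospholipase C were counted in 8 lists, these PLC relatives included. Of 126 listed genes, 102 were tested, and 7 were higher and 8 lower past the threshold, which is 14.7% against 13.6% of all tested genes. The share is near the background, and as the lists were chosen with earlier results of these data known, nothing is read from it. By list, the share was 33.3% for the PLC relatives, 10.5% for PIP2 supply, 10% for Gq and 50% for Gi class and G beta genes. It was 6.67% for small GTPases, 0% for gamma adaptors, 5.56% for IP3 and calcium, and 22.2% for DAG. With upper-quartile scaling 8 listed genes were higher and 6 lower. Over all genes 1009 were then higher and 783 lower in place of 810 and 1094. Listed genes were 7 higher and 14 lower when the fit set replicates 1 and 2 apart from 3 and 4, beside 1205 and 1681 of all genes. With the GC trend removed they were 8 and 14, beside 1007 and 1475 of all genes. With a replicate block as well they were 8 and 17, beside 1186 and 1786. Calls over all genes thus rose in these fits too, with more lower than higher. Of the 15 genes, 7 passed in all 20 alternative fits, namely PLCH1, RASGRP1, GNB4, MARCKS, PIP5K1B, PITPNM3 and CHN1, and 8 lost the threshold in some.

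Upstream, the list of PIP2 supply held kinases, transfer proteins and related genes. It had 0 higher and 2 lower genes of 19 tested, with a median log2 difference of 0.00. At an unadjusted edgeR p under 0.05, 2 were higher, and DESeq2 called 1 higher. PIP5K1B, a kinase that makes PIP2, had 5.73 ± 0.58 CPM in NPY1R low and fell to 3.21 ± 0.29 in NPY1R high (SD, n = 4 each), with a log2 difference of -0.83 (SE 0.13; edgeR adjusted p 0.00209). PITPNM3, named as a member of the phosphatidylinositol transfer protein family, fell by 0.59 on the log2 scale (SE 0.11; edgeR adjusted p 0.0066). The more abundant kinases PI4KA and PIP5K1A had log2 differences of -0.16 (SE 0.11) and -0.05 (SE 0.07) and did not pass.

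In the list of Gq class subunits and their regulators, 0 of 10 tested genes were higher, also at an unadjusted edgeR p under 0.05 and in DESeq2, and 1 was lower. GNAQ, whose product activates the beta enzymes, had a log2 difference of -0.11 (SE 0.06) and GNA11 of -0.16 (SE 0.21), and neither passed. RGS16, a protein that shortens G protein signals, fell by 0.84 on the log2 scale (SE 0.23; edgeR adjusted p 0.0386), at 2.25 ± 0.72 against 4.00 ± 0.57 CPM (SD, n = 4 each). Leaving out each of the 8 libraries in turn kept its call once, without NPY1R high replicate 4, and its edgeR adjusted p reached 0.103 without NPY1R low replicate 1.

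Among Gi class alpha and G beta subunits, 2 of 8 tested genes were higher and 2 lower (50% past the threshold, against 13.6% of all tested genes). GNB4, a beta subunit, had 44.8 ± 3.74 CPM in NPY1R low and fell to 29.3 ± 1.20 in NPY1R high (SD, n = 4 each), with a log2 difference of -0.61 (SE 0.08; edgeR adjusted p 0.000497). GNAI1, an inhibitory alpha subunit, rose by 0.58 on the log2 scale (SE 0.15; edgeR adjusted p 0.0339). That call was lost without NPY1R high replicates 1, 3 or 4 or NPY1R low replicates 1 or 2, with an edgeR adjusted p of up to 0.091. GNB5 rose by 0.43 (SE 0.11; edgeR adjusted p 0.0243) and lost the call without NPY1R high replicates 1 or 2 or NPY1R low replicates 1 or 3, where the edgeR adjusted p reached 0.0744. GNB1, the most abundant beta subunit here, fell by 0.17 (SE 0.05; edgeR adjusted p 0.0412), a call kept when NPY1R low replicate 2 was left out and lost when any other library was, and its edgeR adjusted p reached 0.224.

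Of the small GTPases that regulate PLCE1 and the exchange factors of Rap, 0 of 15 tested genes were higher, also at an unadjusted edgeR p under 0.05 and in DESeq2, and 1 was lower. HRAS and NRAS had log2 differences of -0.08 (SE 0.24) and 0.03 (SE 0.06). RAP1A and RAP1B had 0.13 (SE 0.08) and 0.02 (SE 0.06). None of these 4 passed. RHOC, a small GTPase linked to cell motility, fell by 0.47 on the log2 scale (SE 0.11; edgeR adjusted p 0.0165), and lost the call without NPY1R high replicates 3 or 4 or NPY1R low replicate 1, where the edgeR adjusted p reached 0.0684. In the list of kinases and adaptors of the gamma enzymes, 0 of 8 tested genes passed in edgeR, DESeq2 or limma-voom, and 1 had an unadjusted edgeR p under 0.05.

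**Figure D5:**
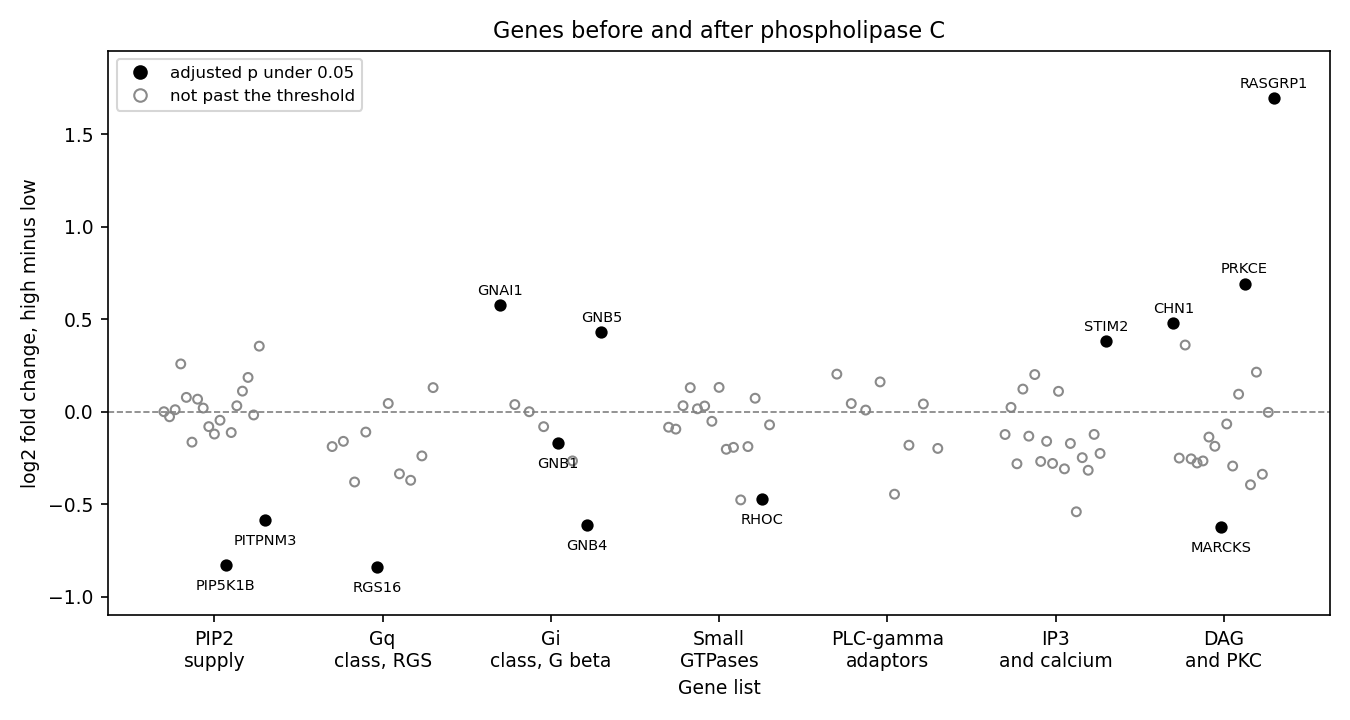
Log2 fold change (NPY1R high minus NPY1R low) of the tested genes in the 7 lists of genes acting before and after phospholipase C. Each point is a gene, filled where the edgeR adjusted p was under 0.05. RASGRP1 stands highest, at 1.69, and RGS16 and PIP5K1B lowest, at -0.84 and -0.83.

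Downstream, the IP3 and calcium list had 1 higher and 0 lower genes of 18 tested, with a median log2 difference of -0.17. At an unadjusted edgeR p under 0.05, 4 were lower, and DESeq2 called 1 lower. The IP3 receptors ITPR1, ITPR2 and ITPR3 had log2 differences of -0.31 (SE 0.15), -0.17 (SE 0.07) and -0.54 (SE 0.18), and none passed (edgeR adjusted p 0.215, 0.123 and 0.0778). STIM2, a calcium sensor of the endoplasmic reticulum, rose by 0.38 (SE 0.09; edgeR adjusted p 0.0198), a call lost without NPY1R high replicate 1 (edgeR adjusted p 0.0585) or replicate 2 (0.0565).

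The DAG list had 3 higher and 1 lower of 18 tested genes, with a median of -0.16. Among the 18, 4 were higher and 6 lower at an unadjusted edgeR p under 0.05. RASGRP1, an exchange factor that DAG recruits to activate Ras, had 6.97, 8.63, 9.19 and 6.50 CPM in NPY1R high replicates 1 to 4. In NPY1R low replicates 1 to 4 it had 2.35, 2.38, 3.11 and 1.89 CPM. The groups did not overlap, and RASGRP1 rose by 1.69 on the log2 scale (SE 0.18; edgeR adjusted p 0.000217). PRKCE, a DAG-dependent protein kinase C, rose by 0.69 (SE 0.16; edgeR adjusted p 0.0191) and lost the call without NPY1R high replicate 2 or NPY1R low replicates 2 or 3, where the edgeR adjusted p reached 0.0567. CHN1, a DAG-binding GTPase-activating protein that switches Rac off, rose by 0.48 (SE 0.08; edgeR adjusted p 0.00278). MARCKS, a membrane substrate of protein kinase C that binds PIP2, had 305 ± 30.5 CPM in NPY1R low and fell to 198 ± 6.97 in NPY1R high (SD, n = 4 each), with a log2 difference of -0.62 (SE 0.07; edgeR adjusted p 0.00035). PRKCA and PRKCD, which encode other DAG-dependent protein kinase C enzymes, had -0.29 (SE 0.13) and 0.09 (SE 0.10) and did not pass. PRKCH, the most abundant protein kinase C gene tested in the list, had 46.2 ± 5.60 CPM in NPY1R high and 60.7 ± 9.22 in NPY1R low (SD, n = 4 each). Its log2 difference was -0.39 (SE 0.12; edgeR adjusted p 0.059), and it did not pass.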

How the data were processed

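Each library took 200 ng of RNA through a stranded kit, per the labels' protocols. The submitters' processing notes name STAR 2.5.2, RSEM 1.3.0 and hg38, with no role or order. The authors deposited expected counts per gene symbol, unscaled (7.97% to 8.76% of values in a library are not whole). The 8 single-sample tables held the values of the series table, with 0 differing. Counts were rounded and filtered with edgeR's filterByExpr (minimum count 10), which left 14008 genes, scaled by TMM and tested with edgeR's quasi-likelihood test without covariates, adjusted by Benjamini-Hochberg (R 4.3.3, edgeR 4.0.16). A standard error is the log2 fold change divided by the root of the F statistic. Library totals set the counting error, and the 12 replicate pairs differed by a chi-square of 5.75 to 62.2 per degree of freedom, so none was one library deposited more than once. Lengths, GC and positions came from GENCODE release 29 (GRCh38), with a value for 94.2% of tested genes. The GC trend removed in a fit was a spline with 5 degrees of freedom, fitted to each library's deviation from the mean of all libraries.

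The members and lists were chosen with earlier results of these data known. Named genes were the 10 members, NPY1R, listed genes past the threshold, the 5 genes most like PLCE1 (mean CPM of at least 1), and overlapping or neighbouring genes. Listed genes named below the threshold, and the genes of the marker lists, were chosen after their values were seen. Some listed genes are counted in their list but not reported by name here. GRK2 was matched as ADRBK1, a RefSeq synonym. The test was checked on simulated counts. Alternatives were other scalings, filters, DESeq2 1.42.0, limma-voom (limma 3.58.1), a replicate block, a term for replicates 1 and 2 against 3 and 4, a GC offset, other thresholds and lengths, and leaving out each library.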

Additional observations from a re-analysis of the deposited data

Results flagged for a closer look

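In 2 of 20 group values of the 10 genes, 1 library stood apart from the other 3 by Dixon's test at the 95% level, where chance flags about 1 in 20. PLCD3 had 8.83 CPM in NPY1R high replicate 3 and 13.9 to 14.6 in the other NPY1R high libraries, a gap of 0.88 of the group's range. PLCE1 had 4.16 CPM in NPY1R low replicate 4 and 4.87 to 4.97 in the other NPY1R low libraries, again a gap of 0.88 of the range. NPY1R high replicate 3 and NPY1R low replicate 4 are the libraries at the low end of the GC trend, whose part in these values was not tested.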

How the results depend on the processing

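PLCE1 had a log2 difference of 2.47 to 2.56 over 20 alternatives, and PLCE1, NPY1R and the 15 listed genes past the threshold kept their direction in them. The 1904 calls over all genes became 2886 when replicates 1 and 2 were set against 3 and 4 in a term, 2972 when the replicate block was combined with the GC offset, and 1032 at an adjusted p under 0.01. Leaving out each library in turn gave 1351 to 2132. Members past the threshold were 2 in place of 1 with that term, with the GC offset, with the block and the offset, and without NPY1R high replicate 3 and NPY1R low replicate 4 (chosen after seeing the data). The second member was PLCD3. Over all genes, 2886, 2482 and 2972 of 14008 tested passed in the first 3 of these fits, and 1935 of 14083 in the last. As the members were chosen on the difference between the groups, the counts of members are a description and support nothing. Listed genes past the threshold were 25 with the block and the offset and 7 at 0.01, against 15, and 10 to 18 in the fits without 1 library. The causes were not tested. With the longest transcript, mean TPM was 52.3 for PLCB3, 30.2 for PLCB4, 12.5 for PLCG1, 3.67 for PLCD4, 2.32 for PLCE1, 1.33 for PLCD1 and 0.553 for PLCG2.

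Whether the replicate numbers pair the samples was not settled. Deviations of same-numbered libraries correlated at 0.339, 0.157, 0.0907 and 0.0178 across genes. Those of differently numbered libraries were not compared, so these values cannot decide it. With the replicate block alone, 1833 genes passed in all and 15 listed genes, and PLCL1 (edgeR adjusted p 0.0529) and GNB1 (0.0789) did not. At 15 to 63 counts per library, PLCB2 is limited by depth.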
